A study of Mus musculus with 11 samples.

Results

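PU.1 occupancy in normal erythroid progenitors was measured by chromatin immunoprecipitation and sequencing (ChIP-Seq), with 4 PU.1 ChIP libraries and 2 input DNA libraries of ES-EP, which are 6 of the 11 samples of the series. ES-EP are proliferating erythroid progenitors derived from mouse embryonic stem cells, grown in StemPro34 medium with Epogen, human IGF-1, dexamethasone and murine stem cell factor. The antibody was anti-PU.1 T-21 from Santa Cruz. The libraries were named A1, A2, B1 and B2, with the letter read as the preparation of chromatin and the digit as its first or second library, and the inputs are input 1 and input 2. Libraries of a preparation were summed, so that 2 preparations stood against 2 inputs. The labels do not say whether the preparations came from separate cultures, and p-values then measure the spread between these samples, which may be technical. ES-EP are a cultured model of an early red cell precursor, and DNA from ChIP carries no expression markers by which the labelled cell type could be checked.

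Sfpi1 encodes PU.1, an ETS protein without which macrophages and B cells do not form. In red cell progenitors it restrains terminal differentiation, in part by binding the erythroid factor GATA-1, and its overexpression is a step in mouse erythroleukemia. It binds purine-rich DNA with a GGAA core, usually with adenines before it, at promoters and at distal elements, and one known target is an upstream element of its own gene.

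The occupied distal sites with the largest enrichment whose reads peaked within 100 bp of the 8-letter word GAGGAAGT, a form of the PU.1 site, are shown first, since they show the word in its surroundings at the sites with the most ChIP over input. The stretches of Tbl1xr1 and Bcl2l15 share the letters on both sides of the word and are not independent examples of its surroundings. Each stretch is named by the nearest gene, comes from the NCBIM37 assembly (mm9), reads 5′ to 3′ on the strand given and has the word in capitals.
Tbl1xr1, intergenic, chr3:21634795-21634874, plus strand: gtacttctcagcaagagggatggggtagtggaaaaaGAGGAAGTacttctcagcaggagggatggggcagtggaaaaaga
Cpt2, intergenic, chr4:107601509-107601588, plus strand: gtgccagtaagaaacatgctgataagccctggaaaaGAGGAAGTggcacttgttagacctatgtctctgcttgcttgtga
Calhm2, intron, chr19:47207745-47207824, minus strand: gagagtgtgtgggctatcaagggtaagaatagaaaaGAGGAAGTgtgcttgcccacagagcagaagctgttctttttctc
Spef2, intron, chr15:9644522-9644601, minus strand: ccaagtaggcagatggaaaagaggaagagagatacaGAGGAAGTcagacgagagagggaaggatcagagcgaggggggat
Bcl2l15, intron, word just past the edge of the bin, chr3:103645001-103645080, plus strand: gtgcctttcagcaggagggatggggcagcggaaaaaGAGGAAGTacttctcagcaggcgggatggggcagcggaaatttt

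Other distal sites of the same rank had no copy of the word near the highest point of the ChIP reads. In the bin nearest to Epm2a a copy lay 429 bp from that point, and the other bins shown had none. Their sequence around the highest point of the ChIP reads is shown with each GGAA, or its complement TTCC, in capitals, so that the ETS cores that are present can be seen.
Nub1, intron, chr5:24193706-24193825, plus strand: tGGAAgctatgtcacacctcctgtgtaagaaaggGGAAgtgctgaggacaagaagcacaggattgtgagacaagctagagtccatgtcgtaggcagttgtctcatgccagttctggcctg
Cdkn1a, intergenic, chr17:29248366-29248485, plus strand: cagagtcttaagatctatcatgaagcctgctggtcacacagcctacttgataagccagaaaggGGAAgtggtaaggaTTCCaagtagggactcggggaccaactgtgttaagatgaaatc
Epm2a, intergenic, chr10:11043486-11043605, plus strand: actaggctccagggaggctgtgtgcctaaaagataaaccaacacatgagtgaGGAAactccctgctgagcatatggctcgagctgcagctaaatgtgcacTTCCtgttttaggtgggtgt
Zfp869, intergenic, chr8:72240436-72240555, plus strand: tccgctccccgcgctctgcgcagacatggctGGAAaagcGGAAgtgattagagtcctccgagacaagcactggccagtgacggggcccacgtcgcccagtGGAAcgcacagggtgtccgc

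Among promoters, those of Csf2rb, Grb2, Gpd2, Wdr43 and Inpp5d are shown because their transcription start site (TSS) windows were occupied and hold the word, which is again in capitals. It lay 16 to 61 bp from the highest point of the ChIP reads, and 101 bp at Gpd2.
Csf2rb, TSS window, chr15:78156376-78156455, minus strand: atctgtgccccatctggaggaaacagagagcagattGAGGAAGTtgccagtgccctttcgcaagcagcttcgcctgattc
Grb2, TSS window, chr11:115560861-115560940, minus strand: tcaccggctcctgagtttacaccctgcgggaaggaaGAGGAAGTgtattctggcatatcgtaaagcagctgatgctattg
Gpd2, TSS window, chr2:57090754-57090833, plus strand: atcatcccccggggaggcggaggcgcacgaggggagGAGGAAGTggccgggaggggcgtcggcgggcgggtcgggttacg
Wdr43, TSS window, chr17:71965484-71965563, minus strand: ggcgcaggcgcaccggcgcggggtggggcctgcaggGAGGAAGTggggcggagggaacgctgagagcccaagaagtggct
Inpp5d, TSS window, chr1:89516831-89516910, plus strand: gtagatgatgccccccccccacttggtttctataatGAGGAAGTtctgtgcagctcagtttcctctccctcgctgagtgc

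The TSS windows of the erythroid regulators Gata1 and Gfi1b and of the ETS factor Elf1, and a bin between exons 1 and 2 of Sfpi1, were occupied without the word. Capitals mark each GGAA or TTCC in them, and the stretch of Gfi1b holds neither.
Gata1, TSS window, chrX:7541097-7541216, plus strand: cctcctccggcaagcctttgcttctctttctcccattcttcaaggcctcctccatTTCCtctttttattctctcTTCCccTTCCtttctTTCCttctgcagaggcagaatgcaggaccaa
Elf1, TSS window, chr14:79915396-79915515, plus strand: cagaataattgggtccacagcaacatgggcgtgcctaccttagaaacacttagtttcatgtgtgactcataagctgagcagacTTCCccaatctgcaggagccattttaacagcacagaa
Gfi1b, TSS window, chr2:28477387-28477506, plus strand: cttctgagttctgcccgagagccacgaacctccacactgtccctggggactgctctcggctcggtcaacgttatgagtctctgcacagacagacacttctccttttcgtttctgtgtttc
Sfpi1, occupied bin between exons 1 and 2, chr2:90923216-90923335, plus strand: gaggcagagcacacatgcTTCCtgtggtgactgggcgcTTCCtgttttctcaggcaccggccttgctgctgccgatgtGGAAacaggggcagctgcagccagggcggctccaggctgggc

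Preparation A held 6284725 reads and preparation B 7095855 on chromosomes 1 to 19, X and Y, against 2437650 and 5051235 in inputs 1 and 2. Reads at a position and strand already taken made up 2.84 to 8.86% of the ChIP libraries and 4.11 and 7.90% of the inputs. All TSS windows together cover 0.623% of the genome and took 5.68 and 7.90% of the reads of A1 and A2, 3.26 and 4.68% of B1 and B2, and 3.07 and 4.11% of inputs 1 and 2. The second library of each preparation and the second input thus held more reads at TSSs than the first.

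PU.1 reads at gene starts exceeded input at a small set of promoters. A TSS window is the 500 bp around an annotated start of a protein-coding transcript, and it was called occupied when ChIP was above input at an adjusted p below 0.05 (limma voom, preparations A and B against inputs 1 and 2, two-sided, Benjamini-Hochberg). Of 43975 windows with a read, 1218 were occupied, which is 2.77%, and 34 were lower than input. Windows of nearby starts overlap and share reads, so counts and shares of windows can include the same promoter more than once. At gene level, 775 of 22219 genes had an occupied window, 3.49% of them. An unadjusted p under 0.05 was reached by 4457 windows with ChIP higher. An occupied window had a median of 91 reads in A and 51 in B, against 2 and 8 in inputs 1 and 2. In RPM, which are reads scaled to the same total in each sample, these medians were 14.5, 7.19, 0.820 and 1.58. Summed over occupied windows, the ratio to input was 12.6 in A and 5.89 in B. Leaving out input 1 or input 2 left 0 windows called by limma (2285 and 2563 windows with ChIP higher at an unadjusted p under 0.05), and leaving out preparation B raised the number to 4232. An exact binomial test of the summed reads, which does not see the spread between samples, called 4586 with both inputs.

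**Figure D1:**
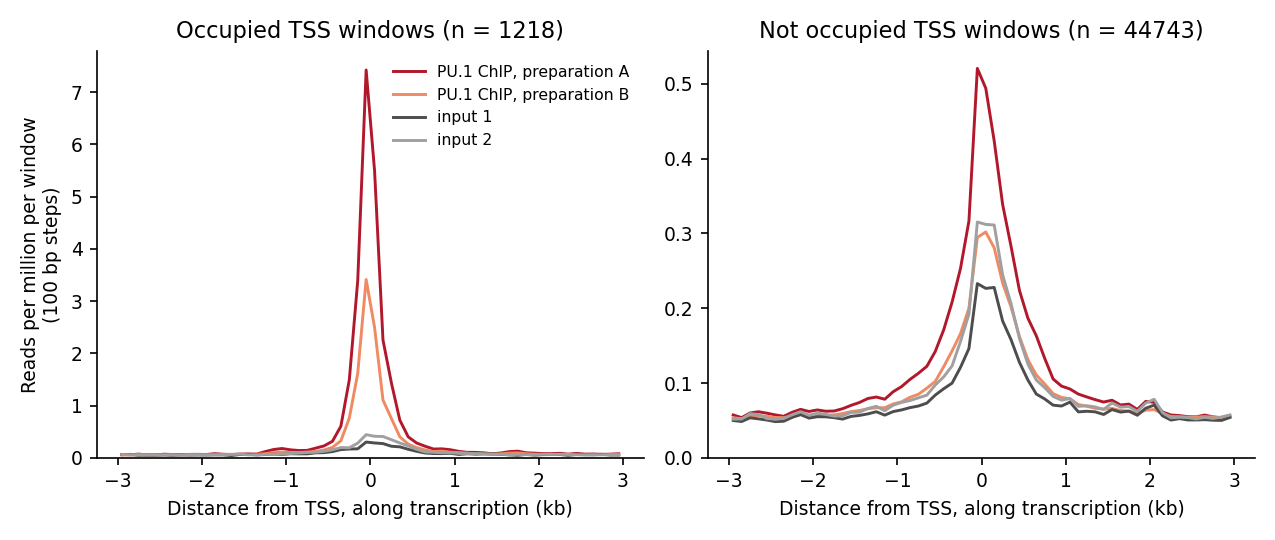
RPM per window in 100 bp steps, by distance from the TSS along the direction of transcription, for occupied (left) and not occupied (right) windows, with 1 line for each preparation and input and with separate vertical scales. In the 100 bp just upstream of the start, occupied windows reached 7.43 in A and 3.41 in B against 0.302 and 0.443 in the inputs, while the other windows had 0.521, 0.295, 0.233 and 0.315.

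Reads of both preparations and of both inputs were highest at the start itself, also in windows that were not occupied. CpG-rich windows (GC of at least 50% and an observed over expected CpG ratio of at least 0.6) held 991 of the occupied windows, 4.57% of 21665, and the other windows 227 of 22310, which is 1.02%. The median window held 31 ChIP and 13 input reads when CpG-rich, and 4 and 2 otherwise. The part of depth in these shares was not tested. The median log2 difference of the occupied windows was 2.81 in CpG-rich and 3.38 in other windows, whereas over all windows it was 0.23.

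Promoters with the largest log2 difference, among the 918 occupied windows with at least 30 reads in each preparation, are described first. Alox5ap, an activator of leukotriene synthesis in myeloid cells, had 83 and 97 reads in A1 and A2, 31 and 82 in B1 and B2, and 1 and 0 in inputs 1 and 2. Its depth-scaled ratio of ChIP to input was 164, and with the single input read its 95% interval runs from 29.2 to 6499, counting error only. All 4 ChIP libraries stood far above both inputs. Csf2rb, the beta chain shared by the receptors for GM-CSF and related cytokines, had 19, 19, 9 and 30 ChIP reads in the same order and no input read, at least 14.4-fold higher by a floor of 3 pooled input reads. Clec10a, a lectin of macrophages, had 54, 115, 22 and 54 reads against 0 and 3, a ratio of 45.7 (15.5 to 223). Arhgdib, an inhibitor of small GTPases in blood cells, had 42, 87, 28 and 68 reads against 0 and 3, a ratio of 42.0 (14.2 to 205). At these 4 promoters the level in A was above that in B in RPM in each, by the least at Csf2rb, where they were 6.05 and 5.50. Fgd2, an activator of the GTPase Cdc42, had 77, 144, 41 and 105 reads against 2 and 2.

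Among these 12 windows with the largest log2 difference, the 5 with the most reads were CpG-rich. Gpd2, the glycerol phosphate dehydrogenase of mitochondria, had 426, 955, 156 and 463 reads in A1, A2, B1 and B2 against 4 and 22 in the inputs, with a log2 difference of 5.57 ± 0.79 (SE, adjusted p = 1.99e-08, limma). C330019G07Rik had 360, 918, 131 and 438 against 6 and 9. Wdr43, a ribosome biogenesis factor, had 254, 642, 95 and 330 against 3 and 16, and its log2 difference was 5.35 ± 0.78. Arpc4, a subunit of the complex that nucleates branched actin, had 167, 404, 84 and 274 against 2 and 4, a log2 difference of 6.18 ± 0.83. Every ChIP library of these promoters exceeded both inputs in RPM. Madd (6.09), Arpp19 (5.32) and Trim56 (5.21) complete the set by log2 difference, and 7 of the 12 windows hold GAGGAAGT. By reads alone other promoters came above Arpc4, whose bin held 933 ChIP reads, for example those at the starts of Itgav with 1384 and Lrrk1 with 1362, which were named after their values were seen.

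Over the whole genome, most occupied bins stood alone. The genome was divided into 5309781 bins of 500 bp, of which 66128 held at least 15 reads over the 6 libraries and were tested. Occupied bins numbered 5265, or 7.96%, and 86 were lower than input. Since a bin can reach 15 reads through its ChIP reads alone, these shares describe the bins tested and not the genome. Neighbouring occupied bins joined to 4985 sites, of which 4715 were a single bin and the longest had 4. Without input 1 only 10 bins were called and without input 2 only 3 (1981 and 1900 with ChIP higher at an unadjusted p under 0.05), without preparation B 13739, and the binomial test of the summed reads called 12359.

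Most occupied bins lay away from gene starts. Of the occupied bins, 3554 or 67.5% were over 2 kb from a TSS, and 56.1% when bins were tested from 10 reads. Of the bins tested here 57.5% were distal, a share that the read minimum itself shapes, since a bin with ChIP reads and no input can pass it. Introns held 1670 occupied bins and intergenic DNA 1783, which were 9.72 and 10.4% of the bins tested there. Within 2 kb of a TSS 1711 were occupied (6.08% of the tested), and in exons over 2 kb away 101 (2.74%). An occupied distal bin had a median of 26 reads in A, 15 in B, and 0 and 1 in the inputs, and in 31.1% of them the inputs had no read. The ratio to input summed over these bins was 22.1 in A and 11 in B, and within 2 kb of a TSS it was 11.2 and 5.33. Distal sites thus had fewer reads and also less input than promoters. Only 2.08% of occupied distal bins were CpG-rich, and 57.4% of those within 2 kb of a TSS.

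The PU.1 word was more frequent in occupied than in tested DNA, at distal sites and at gene starts. On either strand, GAGGAAGT was found in 42.0% of occupied distal bins (1492), in 15.1% of all tested distal bins and in 3.01% of all bins of the genome. Within 2 kb of a TSS, 23.6% of the occupied and 5.35% of the tested bins had it. The share rose with distance from the nearest TSS, from 19.4% of occupied bins under 250 bp to 44.0% over 100 kb. Ordered by log2 difference in 4 equal groups, 45.8, 44.2, 40.2 and 37.7% of occupied distal bins had the word, from the largest differences to the smallest. At TSS windows the word was in 44.5% of occupied and 4.72% of tested windows that were not CpG-rich, and in 18.3 and 3.12% of CpG-rich windows. Relative to the tested features the excess was smallest in distal bins, but the tested sets are unlike. Bins were tested from 15 reads, which ChIP reads alone can supply, and windows from any read. The word was in 15.1% of tested distal bins and 3.01% of all bins, so this order does not rank the places.

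Other words differed less between occupied and tested distal bins. CCGGAAGT, a form of the site of ETS factors such as GABPA, was in 0.703% of occupied and 0.758% of tested distal bins (0.308% of all bins), whereas in CpG-rich TSS windows it was in 16.4% of occupied and 9.96% of tested ones. A site of GATA factors, AGATAA, was in 37.0% of occupied distal bins, 25.3% of tested and 29.98% of all bins, so that the occupied share was above both. TGAGTCA, an AP-1 site, was in 10.9, 9.42 and 7.68%, and TGTGGT, a RUNX site, in 37.4, 36.3 and 31.2%. GGGCGG, an SP1 site, was in 10.1% of occupied and 15% of tested distal bins and in 4.58% of all bins. GGAA alone was in 99.9% of occupied distal bins but also in 99.3% of all bins. All words were searched on both strands, and CCGGAAGT, like GAGGAAGT, contains GGAA.

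**Figure D2:**
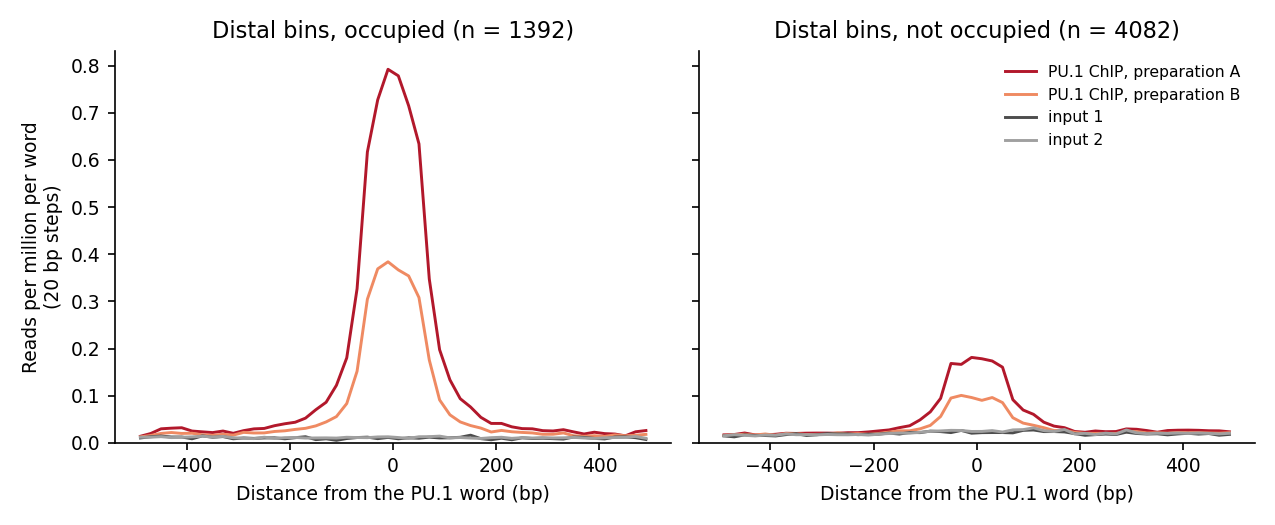
RPM per word in 20 bp steps, by distance from GAGGAAGT in the orientation of the word, for occupied (left, n = 1392) and tested but not occupied (right, n = 4082) distal bins with a single copy. Reads of both preparations were raised around the word. In the 20 bp just before it they reached 0.792 in A and 0.384 in B against 0.0115 and 0.0128 in the inputs in occupied bins, and 0.181 and 0.0961 against 0.0204 and 0.0241 in bins that were not occupied.

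The reads were centred on the word. In the 1392 occupied distal bins with a single copy, the median distance from the word to the highest point of the ChIP reads was 20 bp, and 85.1% lay within 50 bp. In the 4082 tested bins that were not occupied, it was 31 bp and 66.0%. The profile of reads around the word was raised in both preparations also in those bins. There the inputs rose as well, from 0.0147 and 0.0149 RPM per word 490 bp before it to 0.0272 and 0.0318 at 110 bp after it. The letters before the word were also biased. Of 1630 copies in occupied distal bins, 73.8% had A 2 letters before the word, 71.5% had A 3 letters before and 64.0% had A directly before. In tested bins that were not occupied these shares were 55.2, 46.9 and 48.0% (4465 copies), and over the genome 35.6, 31.6 and 37.5% (159452 copies). Directly after the word, G stood in 56.6% of occupied copies, 47.6% of those not occupied and 33.7% over the genome. The calls used no sequence, but the bins were chosen by their ChIP reads, and the shares are a description of the bins so chosen.

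Distal bins with the largest log2 difference, among 699 with at least 30 reads in each preparation, had few or no input reads. The bin 5628 bp upstream of Zfp869, a zinc finger gene, had 98 and 197 reads in A1 and A2, 44 and 111 in B1 and B2, and none in the inputs, at least 84.0-fold higher. Its highest point lay at the edge of the bin, and the adjoining bin was also occupied, with 905 ChIP and 33 input reads. Counted in 500 bp centred on the highest point, a choice made after the data were seen, the site had a ratio of 25.2 (17.6 to 37.5). In an intron 2118 bp downstream of the start of Nub1, a regulator of NEDD8, the reads were 61, 121, 36 and 86 with none in the inputs, at least 56.7-fold higher. The intron bin 8057 bp from the start of Bcl2l15, a BCL2 family gene, had 83, 69, 36 and 85 against none, at least 50.9-fold higher. Each of the 4 ChIP libraries contributed to these bins. Near Cdkn1a, the cell cycle inhibitor p21, a bin 13099 bp from the start had 78, 154, 38 and 91 reads against 0 and 2 (ratio 101, 27.8 to 837, and 59.2 when centred on the highest point), while the TSS window of Cdkn1a held 0 reads of A and 2 of B against 1 and 4. The bin 340823 bp from Tbl1xr1, a subunit of nuclear corepressor complexes, had 87, 166, 23 and 105 against 0 and 1 (ratio 213, 38.0 to 8444). Bins near Tusc1 (6.80), Spef2 (6.72), Rpia (6.56), Fam49a (6.42), Cpt2 (6.40), Calhm2 (6.39) and Epm2a (6.38) followed by log2 difference, and 5 of the 12 bins hold GAGGAAGT. By reads, the highest occupied distal bin lay 9321 bp from the start of the calcium channel gene Trpv4, with 1136 reads in A, 519 in B, and 4 and 11 in the inputs.

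Some genes had PU.1 both at the promoter and at a distal site nearest to them. The 3397 distal sites had 2699 nearest genes, 12.1% of all genes, and 159 of the 775 genes with an occupied TSS window, 20.5%, were among them. These were 5.89% of the nearest genes, where 3.49% of all genes had an occupied window. Of the nearest genes, 510 had at least 2 distal sites and 9 had at least 5. The nearest gene is a matter of position, and whether a distal site acts on it was not tested.

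Among regulators of red cell development, PU.1 occupied the promoters of Gata1, Gfi1b and Lyl1. Gata1, the master regulator of erythroid genes, had 4 and 15 reads in A1 and A2, 5 and 13 in B1 and B2, and none in the inputs, at least 6.90-fold higher (log2 4.32 ± 0.90, adjusted p = 0.000353, limma). Gfi1b, a repressor needed for red cell and platelet formation, had 24, 25, 12 and 18 against 1 and 3, an 11.1-fold difference (log2 3.14 ± 0.79, adjusted p = 0.00544), and a further occupied bin in the same region, 8485 bp upstream of the neighbouring gene Gtf3c5, had 24, 54, 10 and 31 against 0 and 4. Lyl1, a basic helix-loop-helix factor of blood progenitors, had 34, 71, 23 and 56 against 0 and 4, a ratio of 25.7 (log2 4.85 ± 0.87). At each of these promoters both preparations exceeded both inputs.

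Several other genes that the study names or assays had no occupied 500 bp TSS window. For Klf1, Epor, Fli1 and Myb the study reports PU.1 in ES-EP, close to the start or inside the gene, and also by quantitative PCR of ChIP DNA. Its scope, 2 kb around a start and the gene body, is wider than these windows. Occupied distal sites nearest to the gene numbered 0 for Klf1, Epor and Fli1 and 2 for Myb. Why these calls differ from those of the study was not tested. Klf1, a driver of globin genes, had 3, 5, 2 and 5 ChIP reads against 3 and 8 in the inputs (log2 -0.40 ± 0.66). Epor, the erythropoietin receptor, had 0, 3, 0 and 4 against 1 and 4. Fli1, an ETS factor of megakaryocytes, had 1, 3, 0 and 2 against 0 and 4. At these depths ChIP and input overlapped, and a difference was not detectable. Myb, a factor of proliferating progenitors, had 7, 13, 1 and 18 against 7 and 23 at its start (log2 -0.33 ± 0.63), but an intron bin 9539 bp downstream, which holds GAGGAAGT, had 4, 14, 4 and 5 against none and was occupied, at least 5.04-fold higher (adjusted p = 0.00251, limma). Cdk6, a kinase that promotes proliferation, had 0, 1, 0 and 3 against 3 and 6 at its start and 4, 6, 2 and 3 against none in an occupied intron bin 17939 bp away. For Mta3, a corepressor subunit, the start had 6, 11, 0 and 11 against 1 and 8, and 3 distal sites were occupied, for example the intron bin 64220 bp from the start with 26, 55, 16 and 35 against 2 and 2. Gpr149, a receptor gene, had 0, 3, 1 and 1 against 0 and 3 at its start, and 14, 23, 7 and 25 against none in a bin 2311 bp downstream. A bin 1311 bp downstream, within 2 kb of the start, was also occupied, with 23, 33, 11 and 40 against 4 and 3. For Myb, Cdk6, Mta3 and Gpr149 the occupied bins thus lay inside or beside the gene and outside the 500 bp TSS window. The bins of Myb and Cdk6 and the Gpr149 bin without input reads held 27, 15 and 69 ChIP reads. They reached the minimum of 15 reads through ChIP reads alone, so their calls are descriptions of bins so chosen. Akt1 (log2 1.88, adjusted p = 0.275), Egr1 (1.02, 0.544) and the muscle gene Myog (0.37, 0.932) were not called.

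Bins near other erythroid factors were occupied where their TSS windows were not called. Cbfa2t3, a corepressor that works with TAL1, had a bin 1742 bp upstream of a start with 66, 129, 34 and 95 reads against 1 and 2, a ratio of 60.4 (20.5 to 295). Tal1, an erythroid master factor, had 9, 23, 7 and 17 against 1 and 3 in a bin whose middle lies 292 bp upstream of a start and which overlaps the TSS window. Runx1, a factor of blood stem cells, had 4 occupied bins in its introns, of which the most read had 23, 41, 15 and 39 against 1 and 6. In each of these bins the 4 ChIP libraries were above both inputs in RPM.

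PU.1 was found at its own gene, where the study places the upstream regulatory element (URE) that maintains Sfpi1 expression. By the annotation used here this DNA lies after the first exon and upstream of the other starts. The windows around the 3 annotated starts of Sfpi1 held 4, 3 and 7 reads in A, 2, 3 and 13 in B, 2, 1 and 0 in input 1 and 3, 1 and 4 in input 2, and none was occupied. The bin chr2:90923001-90923500, whose middle lies 13686 bp upstream of the most downstream start and 704 bp downstream of the most upstream one, had 10 and 23 reads in A1 and A2, 7 and 31 in B1 and B2, and 3 and 0 in inputs 1 and 2. Its ratio to input was 13.2 (4.35 to 65.8), with a log2 difference of 3.82 ± 0.95 and an adjusted p of 0.0026 (limma). In RPM it had 5.25 in A and 5.36 in B, so that here B was not lower than A, and 1.23 and 0 in the inputs. The promoter of the neighbouring zinc transporter gene Slc39a13 was also occupied, with 108, 258, 71 and 222 reads against 3 and 15 in the bin at its start.

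**Figure D3:**
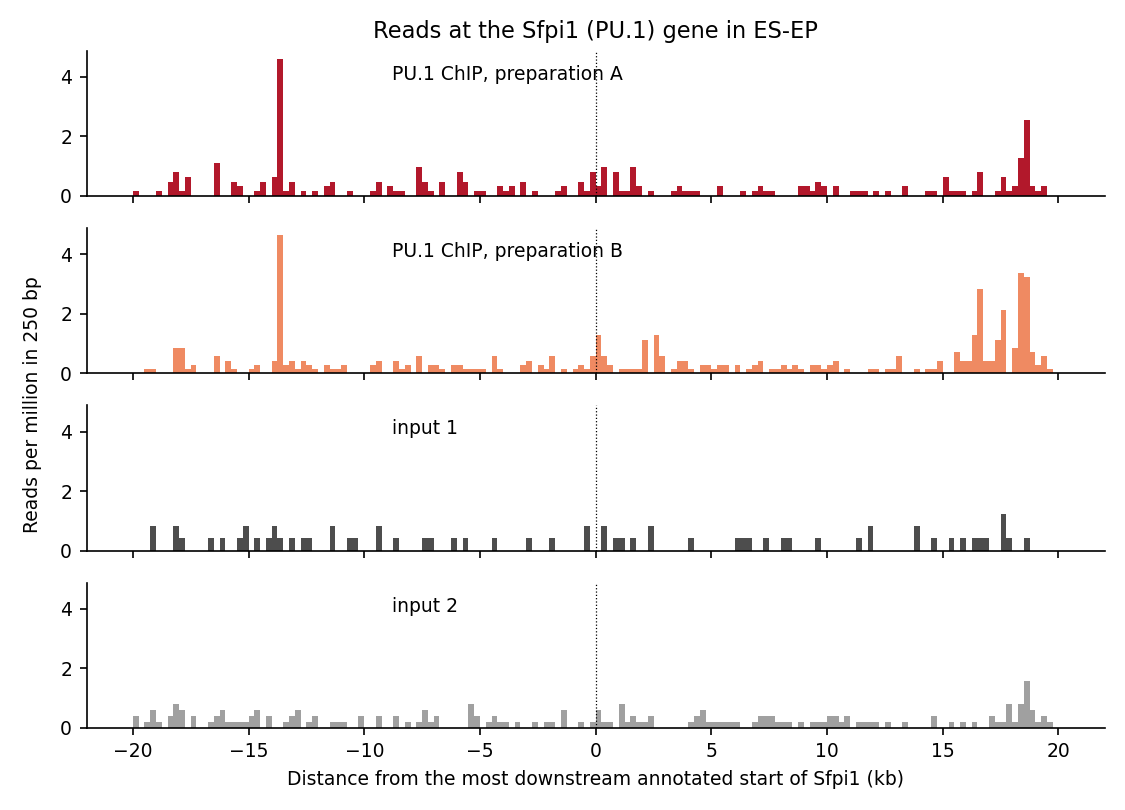
RPM in 250 bp steps from 20 kb upstream to 20 kb downstream of the most downstream annotated start of Sfpi1, with 1 panel for each preparation and input on the same scale. Both preparations have a narrow peak in the occupied bin upstream of that start, where A had 33 and B 38 reads and the inputs 3 and 0, and the exons to the right hold more reads in B than in A.

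Preparation B also held reads in the coding exons of Sfpi1. The last 4 of 7 exons had 7, 16, 18 and 48 reads in B, 0, 2, 4 and 26 in A, 0, 1, 0 and 1 in input 1 and 0, 0, 1 and 15 in input 2. Library B2 alone had 7, 12, 13 and 35 of them. Per base, exons of Sfpi1 had 5.51 times the reads of its introns in B, 3.20 times in A, and 0.910 and 2.15 times in the inputs, while over all protein-coding genes these values were 2.20, 2.68, 1.84 and 2.17. None of these exons lies in a TSS window of Sfpi1 or in the occupied bin, and the source of the reads was not tested.

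The gene lists were described by counts of occupied members and by the median log2 difference, which was 0.28 over all genes with 3.49% occupied. These lists are of unequal size, and the counts are descriptions of each list without a test. Input holds no read in some windows, and with these windows at the bound set by the floor the median over all genes was 0.11. Of 16 erythroid transcription factors 3 were occupied (median 1.01, at the bound 0.86), and 7 were nearest to a distal site, where 12.1% of all genes were. Of 17 ETS factors 3 were occupied (median 0.86). They were Elf1, with 19, 44, 16 and 32 reads against 1 and 1 (ratio 31.1, 8.40 to 260), Elf2 with 242 reads in A and 116 in B against 9 and 21, and Etv3 with 68 and 41 against 2 and 8. At the low end, Etv6, Ets2 and Elf3 had 0, 0 and 1 reads in A, 0, 0 and 1 in B, and 3, 2 and 5 in the inputs together.

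Among genes that carry out red cell function limma called 0 promoters with ChIP higher, and in lists this small that count is near the 3.49% of all genes. Of 15 genes of hemoglobin and heme synthesis found, 13 had reads and 0 were called by limma (median -0.23). The member with the largest difference was Uros, an enzyme of heme synthesis, with 17 reads in A, 20 in B, and 0 and 7 in the inputs (log2 2.09, adjusted p = 0.158). Alas2, the erythroid enzyme that starts heme synthesis, had 0 and 1 reads against 0 and 3, and Hbb-b1, an adult beta globin, 0 and 3 against 1 and 3. Hba-a1 and Hba-a2, the alpha globins, had no read in any library. Of 16 genes of the red cell membrane and of iron uptake 0 were occupied (median 0.83, at the bound 0.78), although 6 were nearest to a distal site. Of all genes 12.1% were nearest to one, and other lists varied, with 8 of 25 PI3K-Akt, 8 of 28 myeloid and 1 of 17 B cell genes. Ank1, the ankyrin of the red cell membrane, had 17 and 9 reads against 0 and 5 at its start and 4 distal sites nearest to it. Epb4.1, a membrane skeleton protein, was lower than input at its window, with no ChIP read against 3 and 3 (log2 -3.61, adjusted p = 0.0117, limma). That call rests on 6 input reads. Over all windows the main fit called 34 lower than input, a log2 fit with a trend 0, and windows tested from 10 reads 1. The transferrin receptor Tfrc had 64 and 53 reads against 11 and 12 (log2 1.37, adjusted p = 0.353).

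**Figure D4:**
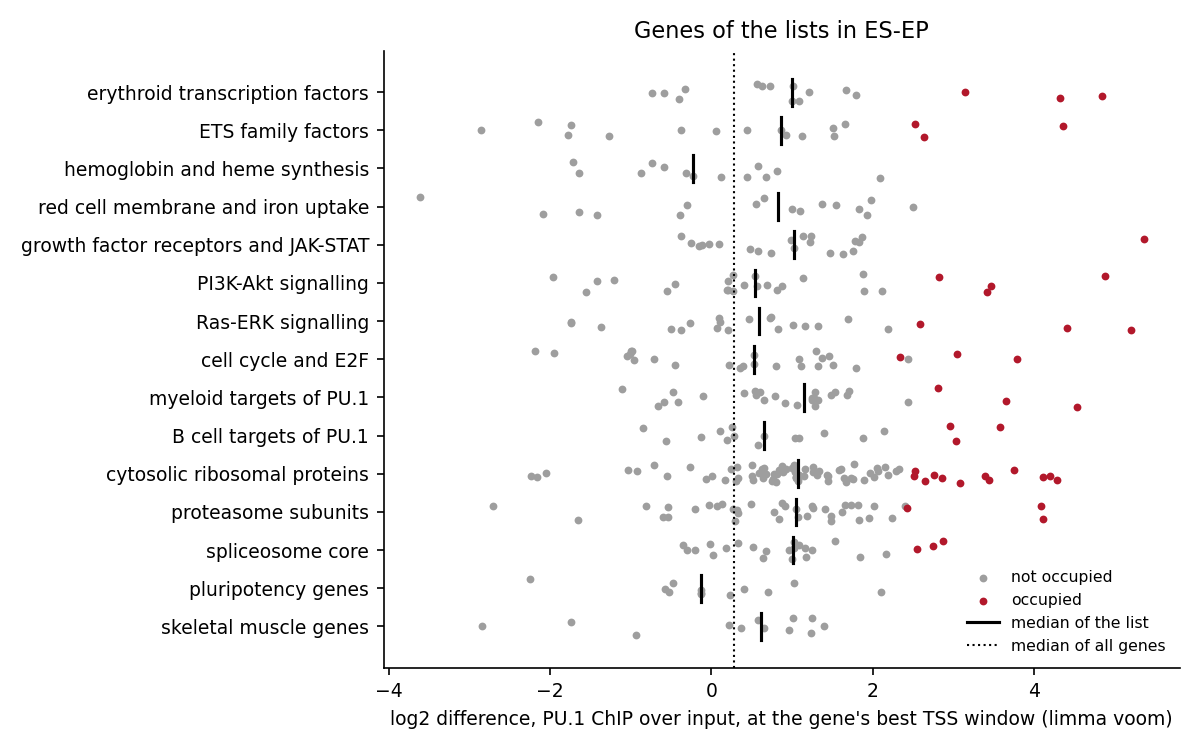
Log2 difference of PU.1 ChIP over input (limma voom) at the best TSS window of each gene of 15 lists, with occupied genes in red, others in grey, the median of each list as a bar and the median of all genes (0.28) as a dotted line. Every list has most of its genes among the not occupied ones, and the lists of hemoglobin and heme synthesis, red cell membrane, pluripotency and skeletal muscle have no occupied gene.

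In signalling pathways that sustain red cell progenitors, single members had PU.1 at the promoter. Of 25 genes of PI3K-Akt signalling 4 were occupied (median 0.54). Inpp5d, the lipid phosphatase SHIP, had 25, 62, 11 and 37 reads against 0 and 2, a ratio of 37.8 (10.3 to 315), and 3 distal sites were nearest to it. Pik3cg and Pik3cd, the catalytic subunits gamma and delta of PI3 kinase in white blood cells, had 78 and 79 reads in A and 38 and 38 in B against 3 and 0 in input 1 and 2 and 9 in input 2. Gsk3b, a kinase inhibited by Akt, had 27 and 13 against 0 and 3. Rptor and Akt2 were among the lowest members, with 1 and 1 reads in A and 1 and 1 in B against 6 and 4 in both inputs together. Of 22 genes of Ras-ERK signalling 3 were occupied (median 0.60, at the bound 0.34). Grb2, the adaptor between receptors and Ras activation, had 15, 21, 11 and 22 reads with none in the inputs, at least 12.9-fold higher, and 2 distal sites. Rps6ka1 and Rps6ka3, kinases activated by ERK, had 24 and 129 reads in A, 16 and 44 in B, and 0 and 13 in the inputs together. Nf1, an inhibitor of Ras, was among the lowest members, with 2 reads in A and 0 in B against 3 and 1.

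Of 21 growth factor receptors and JAK-STAT genes only Csf2rb was occupied (median 1.03, at the bound 0.99). Kit, the receptor for stem cell factor, had 14 reads in A and 22 in B against 6 and 19 (log2 -0.25), and Nr3c1, the glucocorticoid receptor, had 89 and 40 against 5 and 13 (log2 1.87, adjusted p = 0.119, limma). Of 28 cell cycle and E2F genes 3 were occupied (median 0.53). E2f4, an E2F factor needed for red cell maturation, had 109, 279, 51 and 126 reads against 7 and 13 (log2 3.79 ± 0.73). E2f3, an activating E2F, had 97 reads in A and 40 in B against 1 and 8. Cdk2, a kinase of the start of DNA replication, had 97 and 50 against 4 and 11. These 3 promoters were CpG-rich, and in each the preparations stood above both inputs. Ccnd3, a D cyclin of red cell precursors, had 18 and 11 against 1 and 1 (log2 2.43, adjusted p = 0.084).

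Known myeloid and B cell targets of PU.1 were occupied at the promoter in 10.7 and 17.6% of each list, where 3.49% of all genes were, and most members were not called. Of 28 myeloid genes 3 were occupied (median 1.15, at the bound 0.72). Fcgr2b, the inhibitory Fc receptor, had 47, 58, 14 and 51 reads against 1 and 2 (ratio 31.7, 10.7 to 155). Itgb2, the beta chain of leukocyte integrins, had 8, 11, 3 and 9 against 0 and 2 (ratio 8.68, 2.21 to 74.8). Every ChIP library held reads at both promoters, but the counts at Itgb2 are low. Ncf1, a subunit of the phagocyte oxidase, missed the threshold, with 26 and 21 reads against 1 and 3 (log2 2.44, adjusted p = 0.0546), and Csf1r, the receptor of macrophage growth factor, had 4 and 2 against 1 and 3. Of 17 B cell genes 3 were occupied (median 0.65, at the bound 0.19). Btk, a kinase of B cell receptor signalling, had 12, 25, 1 and 12 against 2 and 0 (ratio 14, 3.68 to 119). Cd72, a B cell coreceptor, had 63 reads in A and 41 in B against 2 and 4, and Irf4, a partner of PU.1 on composite sites, had 12 and 4 against none, at least 2.98-fold higher. Pax5, Blk and Ptprc had at most 2 reads in each preparation.

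Without preparation A, the promoters of Gsk3b, Itgb2, Btk, Irf4, Sf3a3 and Srsf1 were no longer called, with log2 differences of 1.83 to 2.52. In that fit the spread comes from the inputs alone. Without input 1 or without input 2 it comes from preparations A and B alone, and all 43 occupied promoters and all 12 distal bins that the rule for named genes chose lost the call. Their log2 differences were then 1.87 to 7.77 and 1.75 to 6.4 for promoters, and 5.5 to 8.35 and 5.09 to 7.29 for bins, so that ChIP was still above the remaining input.

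Among housekeeping genes, 7.69 to 15% of the genes of each list had an occupied promoter, where 3.49% of all genes did. Of 80 cytosolic ribosomal proteins 12 were occupied (median 1.07), led by Rpl35a with 73, 143, 26 and 90 reads against 1 and 9 (log2 4.29 ± 0.77), Rps16 with 46 and 35 against 0 and 2, and Rpl10 with 40 and 20 against 0 and 1. Of 39 proteasome subunits 3 were occupied (median 1.05, at the bound 0.91), Psmd13 with 140 and 65 against 0 and 10, Psma5 with 135 and 83 against 2 and 4, and Psmc2 with 125 and 66 against 6 and 12. Of 24 spliceosome core genes 3 were occupied (median 1.01), Sf3b1 with 114 and 56 reads against 2 and 11, Sf3a3 with 29 and 15 against 0 and 4, and Srsf1 with 73 and 34 against 1 and 10. CpG-rich promoters made up 76 of the 80 ribosomal, 31 of the 39 proteasome and 24 of the 24 spliceosome genes, and 9813 of all 22219 genes. The part of base composition in these counts was not tested.

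The promoters of olfactory receptors, which serve in nasal neurons, were at the level of input. Among 1087 olfactory receptors 1003 had reads, and limma called 0 with ChIP higher and 1 lower (median -0.31, at the bound -0.86). Summed over the list, the ratio to input was 0.966 in A and 0.960 in B. Of 12 pluripotency genes 0 were occupied (median -0.12, at the bound -0.50), with Pou5f1 at 1 and 1 reads against 0 and 2 and Nanog at 0 and 2 against 2 and 3. Of 12 skeletal muscle genes 0 were occupied (median 0.62, at the bound -0.42). In lists of 12 genes a count of 0 is near the 3.49% of all genes.

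The preparations differed in strength, and their order was alike over occupied windows and bins and less so over all tested bins. Over the occupied TSS windows, RPM was higher in A than in B in 96.0% of CpG-rich windows (2.16 times, summed) and 93.4% of the others (1.84 times). In occupied distal bins the ratio was 2.00 with and 2.01 without GAGGAAGT, so that the excess of A was of the same size in both. In windows and bins that were not occupied A was 1.64 times (CpG-rich windows), 1.45 times (other windows) and 1.46 times (bins) B. Pearson's r of log2 values between A and B was 0.942 over the 1218 occupied windows and 0.911 over the 43975 windows with a read (Spearman's rank correlation 0.936 and 0.860), and for bins 0.908 over 5265 occupied and 0.746 over 66128 tested (0.888 and 0.557). These correlations are across windows or bins, which share base composition and gene starts, and are given as descriptions.

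Each preparation was also set against an input of its own, so that the comparisons share no library. By a one-sided exact binomial test of reads with Benjamini-Hochberg adjustment, 4540 TSS windows were called in A against input 1 and 1291 in B against input 2. Both called 1201 windows, which are 26.5% of those of A and 93.0% of those of B. For bins the numbers were 7445 and 3175 with 2651 in both, 35.6% of A and 83.5% of B. Windows called in A were 1.92-fold above input 2 in B (1.10-fold over all windows), and 81.1% of them were higher there, against 52.7% of all windows. Windows called in B were 12.3-fold above input 1 in A (2.54-fold over all windows), and 99.9% were higher, against 68.7% of all windows. Most windows called in B were thus also called in A, while most windows called in A were not called in B.

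Tested directly, with libraries A1 and A2 against B1 and B2 as repeat sequencing of each preparation, 76 TSS windows of 42877 were higher in A (0.177%) and 0 in B by limma. Here each preparation is 1 sample, and the p-values cover only the spread between its libraries. Of these 76, 54 were occupied and 64 were CpG-rich. In bins, 970 were higher in A (1.47%) and 11 in B. With 1 read kept per position and strand, 771 windows differed instead of 76. Leaving out a single library left 5 windows without A1 and 0 without A2, B1 or B2, where 4781, 2015, 1361 and 2672 reached an unadjusted p under 0.05 with A higher. Of the 5 windows with the largest difference 4 held few reads. Wdr45 had 7, 8, 0 and 0 reads in A1, A2, B1 and B2, Hist1h4j 2, 13, 0 and 0, 9030624J02Rik 5, 7, 0 and 0, and Egf 5, 8, 0 and 0. Lilrb3, with the largest difference, had 98 reads in A2 and none in the other libraries. None of these 5 windows was occupied.

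**Figure D5:**
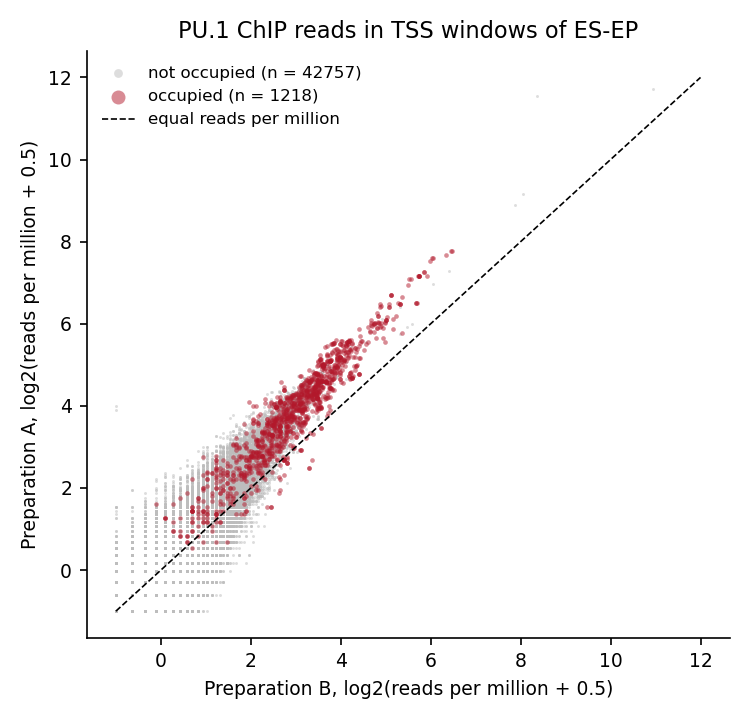
RPM plus 0.5 in each TSS window on log2 axes, preparation B on the horizontal and A on the vertical axis, with the 1218 occupied windows in red, the other 42757 with a read in grey and a dashed line at equal values. The occupied windows follow a band above the line, with A higher in 96.0% of the CpG-rich and 93.4% of the other occupied windows.

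At occupied TSS windows the ratio to input also depended on which input was used, and less so in occupied distal bins. Over occupied TSS windows, A1 and A2 were 13.8 and 12.4 times the input of the same number, and B1 and B2 5.83 and 5.89 times. Against the other input they were 9.17, 18.7, 3.88 and 8.86 times. The libraries of a preparation thus gave nearly the same ratio when first libraries were set against the first input and second against the second. Over occupied distal bins the same-number ratios were 23.7, 21.3, 11.1 and 10.9. Against the other input they were 21.4, 23.6, 10.0 and 12.1, so that there the libraries of a preparation were also alike with the inputs exchanged.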

How the data were processed

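The deposited files hold 1 aligned 27 bp read per line (chromosome, start, strand and sequence) and no measured value, so every count was made from these lines. Per the labels the build is mm9. The authors aligned reads with ELAND (version not given in the sources used here) and deposited the unique alignments, unnormalized. Starts matched NCBIM37 when counted from 1.

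Reads on chromosomes 1 to 19, X and Y were moved 65 bp toward the fragment centre and counted in 500 bp around each GENCODE protein-coding TSS and in 500 bp bins of the genome, tested from 15 reads. The 2 libraries of a preparation were summed. Preparations A and B were compared with inputs 1 and 2 by limma 3.58.1 (voom, two-sided, R 4.3.3) with total reads as library sizes and Benjamini-Hochberg adjustment over all windows or bins with an adjusted p below 0.05 as the threshold. No negative binomial model was run, and exact binomial tests (scipy 1.17.1) were among the alternatives. The limma test was first run on simulated counts with counting error only and the same fold in both preparations. That run cannot show how the test behaves with the spread between these samples. Ratios are depth-scaled with exact 95% intervals for counting error only, and a window without input reads was set against 3 pooled input reads. No window or bin with few reads can show a small difference.

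Named genes were those that the study names or assays, the members of each list with the largest and smallest log2 difference, the 12 occupied TSS windows and 12 occupied distal bins with the largest log2 difference among those with at least 30 reads in each preparation, and the 5 windows with the largest difference between preparations. A few members that the rule names are not reported here. A gene stands by its window with the smallest p. The members and lists were chosen with earlier results of these data known. Alternatives were another scaling, a log2 fit with a trend, binomial tests, 1 read per position and strand, libraries as samples, other read minimums and windows, and leaving out each sample.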

Additional observations from a re-analysis of the deposited data

Results flagged for a closer look

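Of 74 named values with 4 ChIP libraries each, 2 had a library farther from the others than Dixon's 95% limit allows, and chance alone flags about 1 in 20. At the TSS window of Lilrb3, a leukocyte receptor gene, library A2 had 24.9 RPM (reads scaled to the same total) and A1, B1 and B2 had 0, so that its difference between the preparations rests on 1 library. In the distal bin nearest to Bcl2l15, A1 had 35.3 RPM against 17.5, 16 and 17.6 in A2, B1 and B2, and all 4 were above the inputs, which had no read there.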

How the results depend on the processing

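ChIP libraries and inputs share the numbers 1 and 2. Second minus first library correlated at 0.0629 (A) and 0.0786 (B) with the inputs over TSS windows, and at 0.0832 between A and B. With few reads per window, such correlations cannot decide whether libraries of the same number belong together. The labels do not tie a number to a shared culture, so the number was not taken as a pairing. Second libraries held more reads at TSSs in all of them. Only first libraries had reads outside chromosomes 1 to 19, X and Y (24297 in A1, 11654 in B1 and 31318 in input 1). With each library as a sample, a replicate block on the number, chosen after seeing the data, called 1673 TSS windows and 2493 bins, against 1399 and 1913 without it. The number of occupied TSS windows, 1218, was 607 in the log2 fit with a trend and 4586 in the binomial test of summed reads, and leaving out a sample gave 0 to 4232. The number of occupied bins, 5265, was 12359 in the binomial test, 1913 with each library as a sample and 2123 from 10 reads, and leaving out a sample gave 3 to 13739. The 76 windows that differed between preparations became 3 with a trend and 771 with 1 read per position and strand, and 0 to 5 without a library. The distal share of 67.5% was 64.8% with a trend, 59.2% and 60.4% in the binomial tests on summed reads and in each preparation, 64.8% with 1 read per position, 56.1% and 61.0% from 10 and 30 reads, 58.9% and 72.9% with limits of 5 and 1 kb, and 30 to 67.6% without a sample (30 and 33.3% rest on 10 and 3 bins). The share with GAGGAAGT, 42.0%, was 35.8 to 39.0% without a preparation. The 26.5% shared windows became 23.0% with the inputs exchanged. Log2 differences of uncalled genes changed sign for Fli1 (-0.307 in both binomial tests, -0.29 without A, -0.847 without input 1 and 1.27 without input 2, -0.04 from 10 reads), Gpr149 (-0.185 in both binomial tests, -0.149 with 1 read per position, -0.064 without A, -0.665 without input 1 and 1.1 without input 2), Epor (0.00535 in 1000 bp) and Myog (-0.234 without input 2, 0.816 without input 1). The cause of each change was not tested. Of the 43 occupied windows that the rule chose, 10 lost the call with a trend, 6 without A, and 5 in 1000 bp windows and in the binomial test of each preparation, while the 12 distal bins lost it only without an input. With 2 preparations and 2 inputs, depth limits calls to windows with several reads.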

Other observations

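The genes nearest to the most distal sites had functions of several kinds. Runx1, a factor of blood stem cells, Cdkn2b, a cell cycle inhibitor, and Prkcq, a kinase of T cell signalling, were each nearest to 5 occupied distal sites, as were Dapk1, Pcdh7, Tbl1xr1, Tsn and Tusc1, and Zfp217 was nearest to 6. None of these genes had an occupied TSS window. They were chosen after their values were seen, and the number of bins nearest to each gene was not taken into account.

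A second word was noted in the printed sequences of bins without GAGGAAGT and then counted. GGGGAAGT was in 16.4% of occupied distal bins, 6.14% of tested distal bins and 1.69% of all bins. Of the 2062 occupied distal bins without GAGGAAGT, 23.1% had it, and either word was in 55.4% of occupied against 20.6% of tested distal bins. The count was made on the bins in which the word was noted.

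The sites near Tbl1xr1 and Bcl2l15 are alike around the PU.1 word, where both printed stretches hold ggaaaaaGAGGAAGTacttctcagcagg. They also share a run of 30 letters beside the printed stretches, partly or wholly past the edge of the occupied bin. That longer run does not hold the word. This run has 186 exact copies in the genome, 35 of the bins with a copy held enough reads to be tested, and 17 of these were occupied. Of all tested bins 7.96% were occupied. The run was found beside bins chosen for their large log2 difference, and ChIP reads alone can bring a bin into the test. The count is therefore a description. A read of 27 bp that lies wholly inside the run has several exact matches in the genome.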
